A study of Homo sapiens with 6 samples.

Results

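Interleukin-6 family signalling was examined through 9 genes, 4 cytokines (IL6, IL11, LIF and CLCF1) and 5 receptor chains (IL6ST, IL6R, IL11RA, OSMR and LIFR). They were taken by symbol from the 60669 rows of the deposited table, and all 9 had a mean normalized count of at least 10 and entered the test, which covered 15637 genes. LX-2 is a human line derived from activated hepatic stellate cells, labelled as wild type. Every library came from LX-2 grown in medium with fetal calf serum and transfected by lipid for 48 h. One group of 3 libraries received a commercial negative control siRNA (siCTL) and the other 3 a single siRNA against ADAMTS12, a secreted metalloprotease (siADAMTS12). No second ADAMTS12 siRNA is among these samples, so effects of the ADAMTS12 loss and of this siRNA on other transcripts cannot be told apart. Whether libraries of a group are separate cultures is not in the labels, and their spread, on which all p-values rest, may be technical.

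Most cytokines of this family first bind a receptor chain of their own and then recruit gp130, the shared signalling chain encoded by IL6ST. IL-6 uses IL6R and IL-11 uses IL11RA, each with gp130 alone, whereas LIF pairs gp130 with LIFR, and oncostatin M pairs it with OSMR or LIFR. CLCF1 acts through CNTFR, LIFR and gp130. The receptors activate JAK kinases, which phosphorylate STAT3 and also feed the SHP2 to ERK route, and STAT3 induces SOCS3, which shuts the receptor down. In liver, IL-6 drives the acute phase response of hepatocytes, and IL-11 is made by activated stellate cells and fibroblasts exposed to TGF-beta.

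The siRNA is shown because part of it can pair with other transcripts. Its guide strand, the reverse complement of the sense strand in the labels, is printed 5′ to 3′ with positions 2 to 8, the seed that directs microRNA-like silencing, in capitals. The sites of at least 7 bases in the members' 3′ UTRs follow, with the matching bases in capitals, read from 1 GENCODE 29 transcript per gene on GRCh38.
siADAMTS12 guide: uUUCCCUCcaaacuuuggc
IL11, chr19:55364541-55364568, minus strand: caaaaatcctaaAGGGAAAtacgccaaa
LIFR, chr5:38479072-38479099, minus strand: cgggaagagggGAGGGAAgttggaagga
LIF, chr22:30241727-30241754, minus strand: tgagagcagggGAGGGAAggaggcagca
IL6R, chr1:154466958-154466985, plus strand: cttctctactctAGGGAAAaaccagcgt
IL6R, chr1:154467836-154467863, plus strand: aaatgctgttaaAGGGAAAtattaagaa

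LIFR and LIF hold the match to guide positions 2 to 8, GAGGGAA. IL11 and IL6R hold AGGGAAA, the match to positions 2 to 7 followed by an A. IL11RA has only the 6-base match AGGGAA, and no such match was found in the 3′ UTRs of IL6 (429 bases), CLCF1 (968), OSMR (2197) or IL6ST (5987). Among 12606 tested genes with a 3′ UTR of at least 30 bases, 12.04% of those without a match were lower with siADAMTS12, against 17.7% with the 6-base match, 27.0% with AGGGAAA, 28.4% with GAGGGAA and 47.5% with both joined as an 8-base match. IL6 and IL6ST, both lower with siADAMTS12, held none in the 3′ UTR searched. The part of the sites, or of other effects of the siRNA, in the members' changes was not tested. A match is a description of the letters, not a measured binding site.

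The targeted gene was read first. ADAMTS12 (chromosome 5, 33523535 to 33892192, minus strand) stood at 13709, 12235 and 13423 normalized counts in siCTL replicates 1 to 3 and at 4083, 3449 and 3687 in the siADAMTS12 replicates, which left 28.5% of the transcript. The columns summed to 33576945 to 34072515 normalized counts in siCTL and 30678468 to 31415206 in siADAMTS12, so scaling every column to the same total shifted the median log2 fold change of all genes from 0.0050 to 0.13. That scaling also turned the calls over all genes from 1798 higher and 2424 lower into 3869 higher and 1546 lower. Of 12 stellate cell and myofibroblast markers 9 were tested, led by COL1A1, while the retinoid-storage enzyme LRAT was at 0 in every library. They summed to 143102 to 170209 in siCTL and 123162 to 152558 in siADAMTS12, and 4 were lower and none higher (limma adjusted p under 0.05), against 15.5% and 11.5% of all genes tested. These were the proteoglycan LUM (52, 84 and 66 against 8 in each siADAMTS12 library; log2 fold change -2.90), the receptors NGFR (-1.60) and PDGFRB (-0.80), and TIMP1 (-0.43). The part of these changes in the members' results was not tested. Hepatocyte markers summed to 17 to 28, and leukocyte markers to 115 to 149 in all libraries. Endothelial markers summed to 139 to 157 in siCTL and 65 to 79 in siADAMTS12, mostly KDR, with STAB2 and CLEC4M at 0, and their part in the results was not tested. Epithelial markers summed to 1733 to 2233, mostly SOX9, followed by KRT7 (226 to 290). The other epithelial markers EPCAM and KRT19 had at most 7 counts in any library, and CDH1 at most 2.

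IL11, IL6, IL6ST and LIFR were lower with siADAMTS12, and no member was higher past the threshold. The threshold was an adjusted p of 0.05 from limma over all genes tested, and a pseudocount of 1 was added before taking log2, with errors given as limma's moderated standard error (SE). Against 4 of 9 members lower, 15.5% of all genes tested were lower and 11.5% were higher. The fold change was below 0 in 8 of 9 members, with a median of -0.33 over the 9 (0.0050 over all genes). Fewer cells making a transcript and less of it per cell cannot be told apart in these bulk samples. The exact 2-sided permutation p over the 6 libraries cannot go below 0.1, and it was 0.1 for the 5 members whose groups did not overlap (IL11, IL6, IL6ST, LIFR and IL6R). Groups did not overlap in 40.9% of all genes tested.

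**Figure D1:**
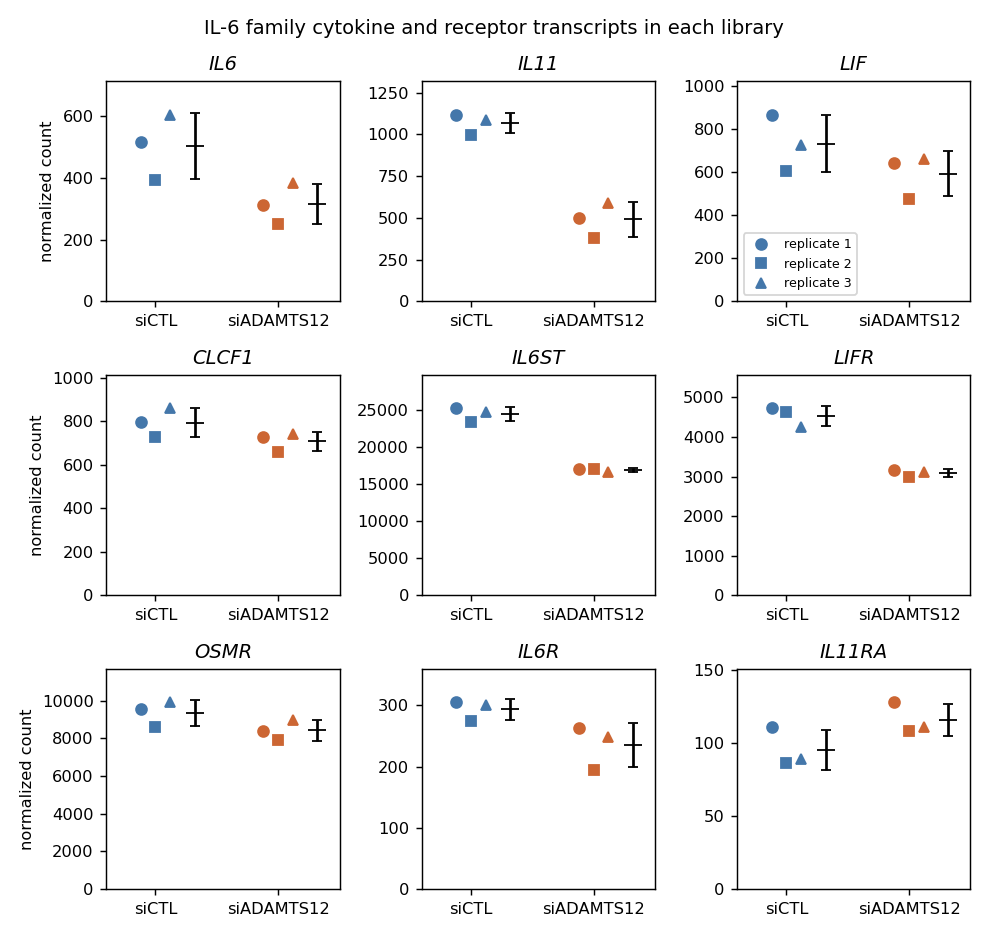
Normalized count (vertical axes, from 0) of each of the 9 genes in the 3 siCTL and 3 siADAMTS12 libraries, with the mean ± SD of each group as a black bar and the replicate number as the symbol. IL11, IL6, IL6ST, LIFR and IL6R show no overlap between groups, while LIF, CLCF1, OSMR and IL11RA do.

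IL11, the cytokine tied to fibroblast activation, changed most among the 9. Its normalized counts were 1118, 999 and 1083 in the siCTL libraries and 501, 382 and 589 in the siADAMTS12 libraries. Every siADAMTS12 library lay far below the lowest siCTL library. The log2 fold change was -1.14 ± 0.13 (SE, n = 3 per group; limma adjusted p = 7.76e-05), which left 45.4% of the transcript. Across the 15 alternative settings it lay between -1.28 and -0.97 and stayed past the threshold. IL11 (ENSG00000095752) lies on chromosome 19, 55364389 to 55370463, minus strand.

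IL6, the founding cytokine of the family, fell less. It stood at 517, 392 and 605 in siCTL and at 313, 251 and 383 in siADAMTS12. The highest siADAMTS12 library, replicate 3, lay just under the lowest siCTL library, replicate 2. The log2 fold change was -0.67 ± 0.17 (SE, n = 3 per group; limma adjusted p = 0.0134), with 62.7% left. The call was lost without siCTL replicate 3 (-0.53, limma adjusted p = 0.0642) and with a variance prior that did not follow intensity (limma adjusted p = 0.0748). IL6 (ENSG00000136244) lies on chromosome 7, 22725884 to 22732002, plus strand. An antisense gene that overlaps its exons, listed in the table as IL6-AS1, had 18 to 27 counts in every library.

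LIF, which signals through LIFR, did not pass the threshold. Its values of 869, 608 and 726 in siCTL overlapped 646, 476 and 662 in siADAMTS12. The log2 fold change was -0.30, with a 95% interval of -0.62 to 0.02 (limma adjusted p = 0.148). CLCF1, a neurotrophic cytokine, had 795, 727 and 858 against 726, 658 and 739. Its groups also overlapped, with a log2 fold change of -0.16 and a 95% interval of -0.35 to 0.02 (limma adjusted p = 0.183). Scaled to the same total, CLCF1 was at -0.04 and LIF at -0.18. These intervals are for single genes and are not adjusted for the number of genes.

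IL6ST, which encodes the shared gp130 chain, was the most abundant of the 9. It read 25206, 23367 and 24665 in siCTL and 17026, 17053 and 16625 in siADAMTS12. The siADAMTS12 libraries were tight, with an SD of 240 around 16901, and lay well below siCTL. The log2 fold change was -0.53 ± 0.06 (SE, n = 3 per group; limma adjusted p = 7.34e-05), which left 69.3%. After quantile normalization it was -0.34 and still past the threshold. The IL6ST pseudogene IL6STP1 had 0 to 2 counts, leaving little of the signal assigned to this copy. IL6ST (ENSG00000134352) lies on chromosome 5, 55935095 to 55994993, minus strand.

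LIFR, the partner of gp130 for LIF, was lower as well. Its normalized counts were 4722, 4636 and 4256 in siCTL and 3163, 2978 and 3121 in siADAMTS12, with no overlap. The log2 fold change was -0.55 ± 0.06 (SE, n = 3 per group; limma adjusted p = 6.07e-05), with 68.1% left. LIFR (ENSG00000113594) lies on chromosome 5, 38474963 to 38608354, minus strand, and its antisense neighbour LIFR-AS1 had 22 to 35 counts.

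OSMR, the other partner of gp130 for oncostatin M, moved less. It had 9572, 8592 and 9921 in siCTL and 8388, 7895 and 8984 in siADAMTS12, and the groups overlapped. The log2 fold change was -0.15 with a 95% interval of -0.31 to 0.01 (limma adjusted p = 0.147), and it was 0.01 after quantile normalization and -0.03 when scaled to the same total. OSMR shares exon sequence with RICTOR on the opposite strand (3739 to 4390 counts), and the sources used here do not give whether strand was used in counting.

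The 2 ligand-binding chains were the least abundant members. IL6R, which binds IL-6, read 305, 274 and 301 in siCTL and 263, 194 and 248 in siADAMTS12. All siADAMTS12 libraries lay under the lowest siCTL library, but the change did not pass (log2 fold change -0.33, 95% interval -0.61 to -0.05; limma adjusted p = 0.0759). It passed when siADAMTS12 replicate 1 was left out (-0.42, limma adjusted p = 0.0472), and was at -0.21 when scaled to the same total. IL11RA, which binds IL-11, was the 1 member with higher values, 128, 108 and 111 against 111, 86 and 89. The groups overlapped, with a log2 fold change of 0.28 and a 95% interval of -0.06 to 0.62 (limma adjusted p = 0.203). IL11RA shares exon sequence with GALT on the same strand (269 to 365 counts), so reads there can be assigned to either gene or to none.

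**Figure D2:**
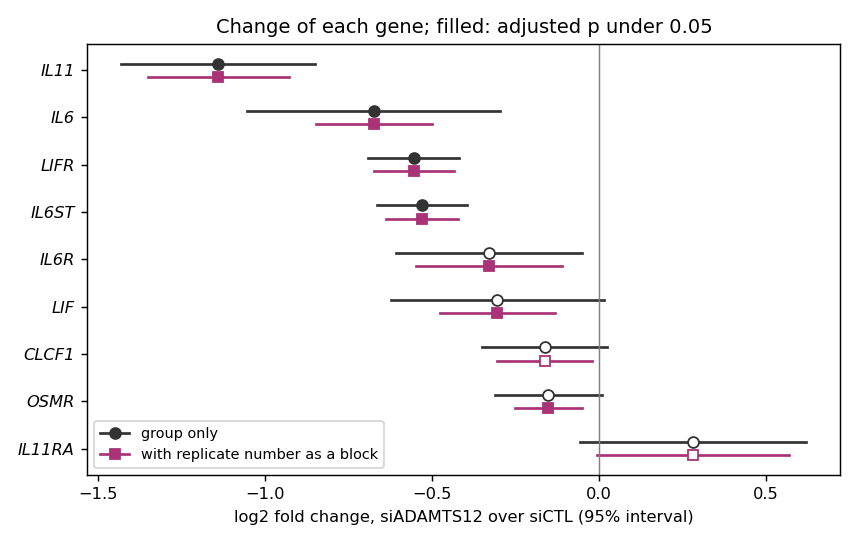
Log2 fold change of siADAMTS12 over siCTL (horizontal axis) for each gene with its 95% interval, fitted on group alone (circles) or with replicate numbers as a block (squares), filled where the adjusted p was under 0.05. IL11 lies furthest to the left at -1.14 and IL11RA is the only gene to the right of 0, at 0.28.

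Same-numbered libraries moved together for this family. Replicate 2 had the lowest value of its group in both groups for 7 of 9 members, against 13.7% of all genes tested. The IL6 value in siADAMTS12 was 60.5%, 64.0% and 63.3% of the siCTL value of the same number. These percentages lay close together although IL6 itself ranged from 392 to 605 in siCTL. For IL11 they were 44.8%, 38.2% and 54.4%, and for LIF 74.3%, 78.3% and 91.2%. All 3 pairs were under 100% for every member except IL11RA, where all 3 were above it. With the replicate number as a block, 7 of 9 members were lower (19.6% of all genes tested were lower in that fit). LIF (limma adjusted p = 0.0135), IL6R (0.0266) and OSMR (0.0274) were called in the blocked fit and not in the fit without it. The labels do not say what same-numbered libraries share, and the block rests on their correlation in these same data. CLCF1 and IL11RA were called in neither (limma adjusted p = 0.0735 and 0.117 with the block).

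**Figure D3:**
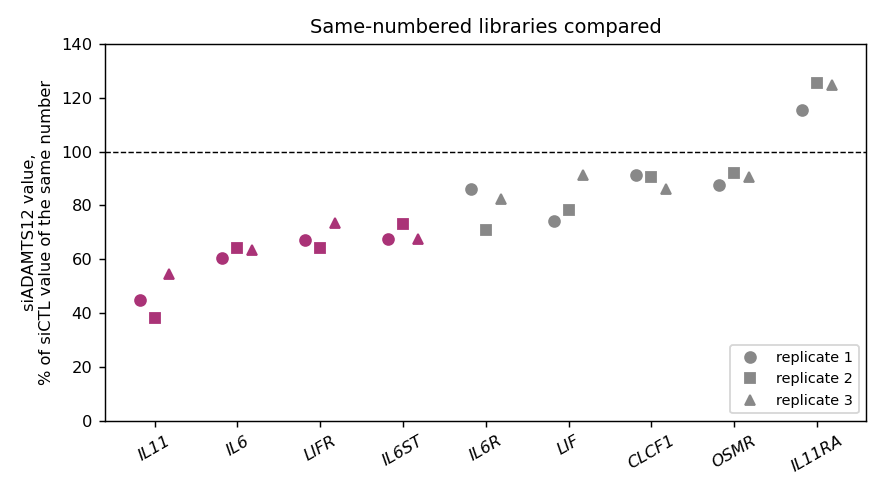
Value in each siADAMTS12 library as a percentage of the siCTL library with the same replicate number (vertical axis, from 0), for each gene in order of log2 fold change; purple marks genes past the threshold without the block, and the dashed line is 100%. The 3 IL6 points lie between 60.5% and 64.0%, and the IL11RA points lie above the line.

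Ratios of 2 members within a library do not depend on the scaling between libraries, and 4 such ratios were computed. They were not among the planned results. Each puts a member with a lower fold change over one with a change nearer to 0. Their direction therefore follows from the member values above and is not separate evidence. IL11 over IL6 was 2.16, 2.55 and 1.79 in siCTL and 1.601, 1.52 and 1.54 in siADAMTS12. The ratio was lower in every siADAMTS12 library than in any siCTL library. LIFR over OSMR was 0.493, 0.540 and 0.429 against 0.377, 0.377 and 0.347. IL6ST over OSMR was 2.63, 2.72 and 2.49 against 2.03, 2.16 and 1.85, with the shared chain and LIFR both lower relative to OSMR in every siADAMTS12 library. IL6 over LIF was 0.595, 0.645 and 0.833 against 0.485, 0.527 and 0.579. All 4 ratios had groups that did not overlap (exact 2-sided permutation p = 0.1 each, the smallest possible, and 0.1 after Benjamini-Hochberg adjustment over the 4). Groups did not overlap in 40.9% of single genes tested, and the share over ratios of other genes is not reported here.

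Levels were compared between genes per kilobase of exon, from the union of GENCODE 29 exons. In siCTL, IL6ST had 2627 ± 102 normalized counts per kilobase (SD, n = 3), higher than 97.1% of the genes tested, and OSMR had 1305 ± 96.0. CLCF1 (402 ± 33.2), IL11 (399 ± 22.9) and LIFR (382.5 ± 20.9) followed and did not differ beyond their spread. IL6 (244 ± 51.7) and LIF (185 ± 32.9) overlapped in range. IL6R (45.5 ± 2.61) and IL11RA (22.3 ± 3.20) were lowest, at the 30.7th and 20.4th percentile of genes tested. The private receptor chains for IL-6 and IL-11 were far below the shared chain per kilobase. The level of IL11RA is uncertain, because its exon length includes sequence shared with GALT, where reads can go to either gene or to none. CLCF1 likewise shares exon sequence on its strand with AP003419.1, which had 0 counts in every library, so the level of CLCF1 is uncertain too. With siADAMTS12, IL11 stood at 184 ± 38.9 and IL6ST at 1819 ± 25.8 per kilobase.

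The start regions of the 2 cytokine genes that fell are shown because their best known inducers bind near the start site. Each runs from 250 bases before to 50 after the start, 5′ to 3′ on the gene's strand, from RefSeq (GRCh38.p14), which held 7 of the 9 members. Capitals mark the motif matches.
IL6, chr7:22726950-22727249, plus strand: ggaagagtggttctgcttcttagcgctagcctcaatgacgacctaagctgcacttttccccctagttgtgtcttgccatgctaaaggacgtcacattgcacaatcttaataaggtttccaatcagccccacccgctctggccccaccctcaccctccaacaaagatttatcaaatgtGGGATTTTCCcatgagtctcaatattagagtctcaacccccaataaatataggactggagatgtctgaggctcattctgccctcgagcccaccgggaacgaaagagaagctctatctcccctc
IL11, chr19:55370414-55370713, minus strand: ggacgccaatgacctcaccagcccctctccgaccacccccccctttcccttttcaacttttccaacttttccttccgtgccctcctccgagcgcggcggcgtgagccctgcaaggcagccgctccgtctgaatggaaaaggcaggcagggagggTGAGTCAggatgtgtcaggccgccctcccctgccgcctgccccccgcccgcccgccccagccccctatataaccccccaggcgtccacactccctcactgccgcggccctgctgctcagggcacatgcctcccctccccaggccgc

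Both strands were searched for the NF-kappaB consensus, the AP-1 motif TGANTCA, the cyclic AMP response element TGACGTCA, the STAT motif TTCNNNGAA and the TATA box TATAAA. The IL6 window held 1 NF-kappaB match, GGGATTTTCC, starting at position -73, and the IL11 window held 1 AP-1 match, TGAGTCA, starting at -96. Among 35116 promoters of the same length, 5.91% held the NF-kappaB consensus, 7.71% the AP-1 motif, 1.85% the cyclic AMP response element, 7.66% the STAT motif and 11.5% the TATA box. Of the receptors, IL6R and OSMR held an AP-1 match after the start site, and 2 of 3 LIFR start regions held a STAT match. Cytokine transcripts are also short-lived through AU-rich elements in the 3′ UTR. The pentamer ATTTA occurred 6 times in IL6, 9 in IL11, 7 in LIF and 4 in CLCF1, and was present in 65.2% of 18711 3′ UTRs. The longer TATTTAT occurred 3, 7, 5 and 4 times in these cytokines and was present in 29.2% of 3′ UTRs. Among the receptors ATTTA occurred 23 times in IL6ST, 29 in LIFR, 8 in OSMR and 6 in IL6R, and TATTTAT 1, 1, 3 and 0 times. IL11RA held neither. The receptor 3′ UTRs of IL6ST and LIFR are also the longest of the 9, at 5987 and 6632 bases.

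Several other ligands and receptors of the family were at or near 0. OSM and IL31 were at 0 in all 6 libraries, IL27 had at most 1 count, and EBI3 had 3 to 14. CTF1 (91 to 145) and CNTF (24 to 63) were tested and did not pass. CNTFR (1 to 7) and IL12RB2 (0 to 2) were too low to test, and IL31RA (37 to 73) did not pass. IL27RA, the receptor for IL-27, was lower at 245, 243 and 203 against 116, 116 and 95. Its groups lay far apart (log2 fold change -1.07 ± 0.14 SE; limma adjusted p = 0.000152), and its 3′ UTR held no guide match.

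**Figure D4:**
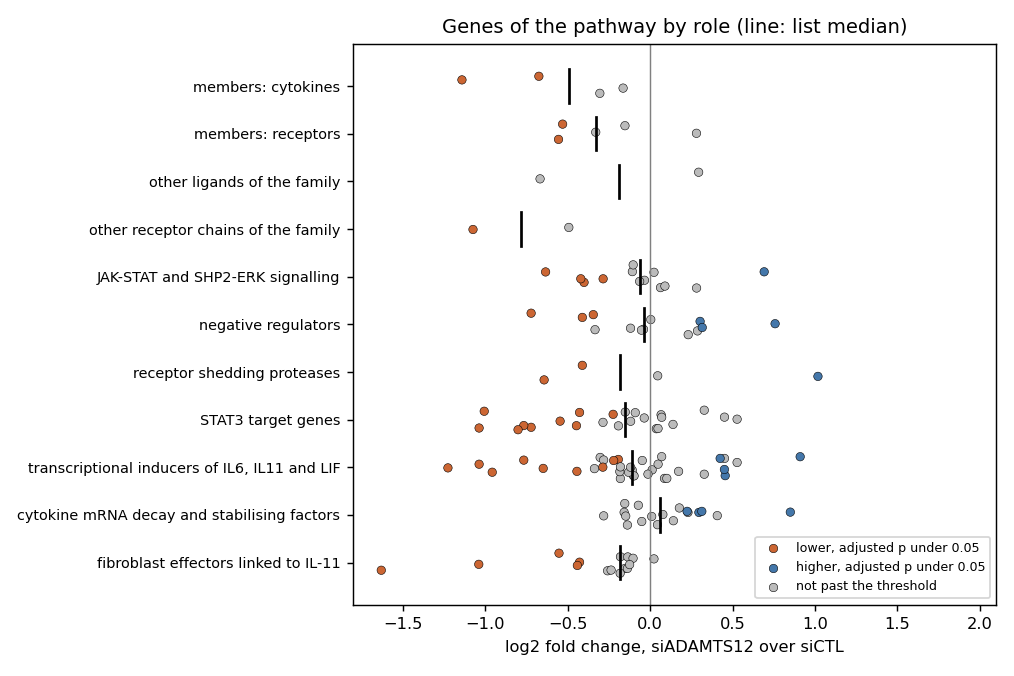
Log2 fold change (horizontal axis) of each tested gene of the 11 role lists (rows), coloured by direction where the adjusted p was under 0.05, with the list median as a black line. The cytokine and receptor rows lie mostly left of 0, and the row of mRNA decay and stabilising factors has no gene called lower.

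Downstream of the receptors, 4 of 13 signalling genes were lower and 1 was higher, with a list median of -0.06, where 15.5% of all genes tested were lower and 11.5% higher. The kinases JAK1 (-0.28) and JAK2 (-0.40) and the adaptors SHC1 (-0.42) and GAB2 (-0.63) fell on the log2 scale, and STAT5B rose (0.69). STAT3, named here after its values were seen because it is the main effector, had 4927, 5383 and 5051 against 4969, 5118 and 4912 (log2 fold change -0.03; limma adjusted p = 0.719). Scaled to the same total, 3 of these 13 were lower and 4 higher, but the calls over all genes also moved towards higher in that scaling. Of 4 genes of receptor shedding, 2 were lower and 1 was higher. Both proteases among them fell. ADAM17 went from 2254, 2143 and 2282 to 1406, 1445 and 1427 (log2 fold change -0.64; limma adjusted p = 1.46e-05), and ADAM10 had a log2 fold change of -0.41 (limma adjusted p = 0.000411). RHBDF2, which escorts ADAM17 to the cell surface, rose from 423, 409 and 389 to 850, 766 and 862 (1.02). RHBDF1, the remaining gene of these 4, did not pass.

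Of 13 negative regulators, 3 were lower and 3 were higher (15.5% and 11.5% of all genes), with a median of -0.04. SOCS3, the feedback inhibitor induced by STAT3, went from 1126, 1156 and 1248 to 679, 636 and 839 normalized counts. The groups did not overlap (log2 fold change -0.72 ± 0.10 SE; limma adjusted p = 0.000298), and the SOCS3 3′ UTR holds the 7-base guide match GAGGGAA. SOCS6 (-0.34) and PIAS1 (-0.41) also fell, whereas SOCS5 (0.30), PIAS3 (0.32) and SOCS1 (0.76) rose. The SOCS1 groups overlapped, at 140, 254 and 145 against 251, 251 and 399.

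Among 23 tested STAT3 target genes (of 25 listed), 9 were lower and none was higher, against 15.5% and 11.5% of all genes. Their median was -0.15 (0.0050 over all genes). ICAM1 (-0.80), PIM1 (from 1615, 2014 and 1658 to 821, 877 and 925), IL1R1 (-0.77), SOCS3, TIMP1 (-0.43) and FOS (-1.04) had the smallest adjusted p. PIM1 is a survival kinase and TIMP1 an inhibitor of matrix proteases. Of the 9 lower genes, 5 held a guide match in the 3′ UTR, GAGGGAA in SOCS3, AGGGAAA in CCND1 (-0.55) and the 6-base match alone in FOS, IL1R1 and ICAM1. The other 4, PIM1 and TIMP1 among them, held none. Other STAT3 targets did not pass, such as MYC, BCL3 and MCL1, at log2 fold changes of 0.04, -0.03 and 0.07. These 3 were named after their values were seen. Scaled to the same total, 7 were lower and 3 were higher, and after quantile normalization 7 and 2. The calls over all genes also moved towards higher when scaled to the same total. Their share after quantile normalization is not reported here, so that count has no base.

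Of 15 fibroblast genes linked to IL-11, 5 were lower and 0 higher, against 15.5% and 11.5% of all genes, with a median of -0.18. Among them were the matricellular protein POSTN (-1.63), TIMP1, VIM (-0.55) and the transcription factor SNAI1 (-0.44). With the replicate block, 9 were lower (19.6% of all genes). ACTA2, the contractile actin of myofibroblasts, was named after its values were seen and ranged from 8101 to 13283 in siCTL and from 7378 to 12884 in siADAMTS12 (log2 fold change -0.15; limma adjusted p = 0.631).

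Genes listed as inducers of IL6, IL11 and LIF changed in both directions, with 9 of 35 tested lower and 4 higher (36 listed), against 15.5% and 11.5% of all genes. NFKBIA on this list instead inhibits NF-kappaB, and it did not pass (log2 fold change 0.01, limma adjusted p = 0.932). With the replicate block, 13 of the 35 were lower and 6 higher, against 19.6% and 15.5%. The TGF-beta receptors TGFBR2 (8481, 7675 and 8375 to 4402, 3890 and 4356; log2 fold change -0.96) and TGFBR1 (-0.65) fell, as did IL1R1, the receptor for interleukin-1. SMAD3 (0.46), the Hippo effector YAP1 (0.45), the kinase MAP3K7 (0.43) and JUND (0.91, named to complete the count) rose. Scaled to the same total the split was 5 lower and 10 higher, and after quantile normalization it was 7 and 8. The calls over all genes also moved towards higher when scaled to the same total, and their share after quantile normalization is not reported here. This list shares 6 genes, IL1R1 and FOS among them, with the STAT3 targets, so the 2 counts are not independent. SOCS3 is likewise counted in both the negative regulators and the STAT3 targets. TIMP1 is counted in the STAT3 targets, the fibroblast genes and the stellate cell markers. Among 18 factors that bind cytokine mRNA or regulate its decay, none was lower and 4 were higher, against 15.5% and 11.5% of all genes. In the blocked fit 2 were lower and 4 higher, against 19.6% and 15.5% of all genes. Scaled to the same total, where more of all genes were called higher, the counts were 0 and 7. ELAVL1, which stabilises AU-rich transcripts, went from 2616, 2611 and 2641 to 4759, 4795 and 4637 (log2 fold change 0.85; limma adjusted p = 8.86e-07). KHSRP (0.30), ARID5A (0.31) and TIA1 (0.23) rose less.

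Guide matches were also read for the pathway genes named as lower. GAB2, PIAS1 and POSTN held the 8-base match, SOCS3 and TGFBR1 held GAGGGAA, and ADAM17, SHC1, SOCS6 and TGFBR2 held AGGGAAA. JAK2, ADAM10, ICAM1, IL1R1 and FOS held only the 6-base match. JAK1, IL27RA, PIM1, TIMP1, SNAI1 and VIM held none. The part of these sites in the changes of the genes that hold one was not tested.

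The genes most like each cytokine over the 6 libraries were found by the Pearson correlation of log2 values, as a description that mixes the group difference with the replicate numbers. For IL11 they were OAF (0.999), SRP19 (0.999) and MRPL48 (0.996). SRP19 went from 591, 536 and 562 to 287, 242 and 343. The genes closest to IL6 were NEDD4L (0.996), IFFO2 (0.986) and STC1 (0.986). STC1, a secreted glycoprotein, had 1819, 1267 and 2015 against 1048, 695 and 1124, with replicate 2 lowest in both groups as in IL6. MCC (0.993), MACIR (0.992) and KRTCAP2 (0.991) were closest to LIF, and none of the 3 passed the test.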

How the data were processed

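Poly(A) RNA of 6 LX-2 libraries was measured by stranded sequencing, per the labels' protocols, with RNA integrity numbers of 9.2 to 9.9. STAR, HTSeq, DESeq2 and GRCh38 are named in the submitters' processing notes, without versions. Which annotation was used, and whether counting used strand, is not given in the sources used here. Deposited values were treated as a score: normalized counts by the authors, stored as whole numbers, so the raw depth is unknown and no count model was fitted. Median-of-ratios factors of the columns were 1.003 to 1.007.

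Genes with a mean of at least 10 were analysed as log2(value + 1), which understates the change of low genes, with limma 3.58.1 in R 4.3.3 (group as the only term, intensity trend, 2-sided, Benjamini-Hochberg over 15637 genes, threshold 0.05). The fit was run on simulated counts with known changes, where libraries were independent and held no replicate effect. That check does not show how the p-values behave if the real libraries share such an effect. The members and lists were chosen with earlier results of these data known. From each list, up to 6 genes past the threshold with the smallest adjusted p were named, and some of the listed genes are not reported here. For the likeness to IL6, IL11 and LIF, genes with a mean of at least 50 were used. Same-numbered libraries correlated at 0.37, 0.13 and 0.13 in their deviations from the group means, against -0.19 to 0.06 for different numbers. Deviations from a shared group mean are not independent, and every negative correlation involved replicate 1. Replicates 2 and 3 correlated at 0.06 when their numbers were swapped, so the pairing is only weakly seen there. Replicate numbers were added as a block in a second fit on the basis of these correlations. The alternatives were pseudocounts of 0.5 and 8, other filters and scalings, no trend, and leaving out each library. Python 3.11.15, pandas 2.3.3, scipy 1.17.1 and matplotlib 3.10.9 were used.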

Additional observations from a re-analysis of the deposited data

How the results depend on the processing

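Directions held under all 15 alternatives for each of the 9 genes except OSMR, which was at 0.011 after quantile normalization (limma adjusted p = 0.933). IL11, IL6ST, LIFR and ADAMTS12 stayed past the threshold in every alternative, and CLCF1 and IL11RA in none. IL6 missed it without the intensity trend (log2 fold change -0.67, adjusted p = 0.0748). With the replicate block, 7 members were called, all lower (19.6% of all genes tested were lower in that fit), and LIF (-0.30), IL6R (-0.33) and OSMR (-0.15) passed. Leaving out 1 library gave 3 to 5 called members. The share over all genes in those fits is not reported here, so that count has no base. In these fits IL6 lay from -0.84 to -0.52, IL6R from -0.42 to -0.20 and LIF from -0.43 to -0.15. OSMR lay from -0.21 to -0.11 and CLCF1 from -0.22 to -0.11. IL6 was lost without siCTL replicate 3, and IL6R was gained without siADAMTS12 replicate 1. Scaled to the same total, LIF (-0.18), IL6R (-0.21), CLCF1 (-0.04) and OSMR (-0.03) lay nearer to 0. The cause of these shifts was not tested. The deposited values carry no raw depth, so counting error could not be given.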
